A study of Saccharomyces cerevisiae with 18 samples.

Results

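The response described here is the set of transcript changes that all 3 isomers of nitrophenol shared in budding yeast (Saccharomyces cerevisiae, strain S288C). It was defined over all 9 arrays of the series. For each gene the 3 isomer means were averaged with equal weight and tested against 0, and the gene was taken as shared when the adjusted p was under 0.05 and the 3 isomer means had 1 sign. By this rule 2306 of the 5096 tested genes belonged to it, 1108 higher and 1198 lower after treatment (45.3% of those tested).

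Exponentially growing cultures in YPD, a rich glucose medium, were exposed for 2 h to 1.5 mM of p-nitrophenol, 5 mM of m-nitrophenol or 3 mM of o-nitrophenol. For every isomer there were 3 biological samples, described as independent, and each was set against RNA of S288C taken before treatment, on 1 2-colour array. The treated polyA RNA carried Cy5 and the RNA from before treatment Cy3 on all 9 arrays, and whether that RNA was shared between arrays is not stated. Values are log2 ratios, and a positive one is read as higher after treatment, a direction that the dyes and channels make likely but that no source states for the values. No culture was kept untreated for 2 h and no dyes were swapped, so 2 h of growth and any dye effect are in every array and cannot be told apart from the treatment. The RNA came from whole cultures, where fewer cells with a transcript and less of it per cell cannot be told apart. A ratio holds no level, so the strain could not be checked against marker genes. Doses differed between isomers, so isomer values are given side by side and were not compared.

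Nitrophenols are phenols that carry a nitro group, and the isomers differ in where that group sits relative to the hydroxyl group. They are weak acids, and p-nitrophenol is also released when the insecticide parathion is hydrolysed. Yeast meets chemical stress with several known programmes. The transcription factors Msn2 and Msn4 raise general stress genes, Yap1 raises redox genes, Pdr1 and Pdr3 raise drug efflux pumps, Rpn4 raises proteasome genes and Met4 raises sulfur amino acid genes. Genes for ribosomal proteins and ribosome assembly are known to fall together when growth slows.

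Arrays held values for 1970 to 5343 genes, the fewest on m-nitrophenol array 1, so for most genes the m-nitrophenol mean rests on 2 arrays. Only 1757 of the 5096 tested genes had a value on all 9 arrays. The arrays numbered 1 stood apart: across genes they correlated with the other arrays of their isomer at r of 0.502 to 0.61, against 0.839 to 0.875 between arrays 2 and 3 (genes are not independent replicates). Values without them are given for some results that turn on them, not for all, so a count printed without such a value need not be stable. The number of arrays limits the precision, and the median 95% half-width of a shared mean was 0.468 on the log2 scale. Over all tested genes the median shared mean was 0.01.

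Of the tested genes 21.7% were higher and 23.5% lower in the shared response. The median shared mean was 1.02 among the genes that were higher and -1.12 among those that were lower, and 572 genes rose and 698 fell by at least 2-fold (11.2% and 13.7% of those tested). By at least 4-fold 105 rose and 197 fell, and by at least 8-fold 24 rose and 50 fell. A further 226 genes passed the threshold with isomer means of differing signs and were left out by the rule. Just inside the threshold was YIR016W, with a shared mean of 0.87 and an adjusted p of 0.0498, and just outside was ATG9, with 0.50 and 0.0501.

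The shared call asks less than a call in each isomer alone, and the groups of genes are nested. Of the genes that were higher, 177 (3.47% of those tested) also passed in each isomer alone, 271 in 2 isomers, 404 in 1 and 256 in none. Of the genes that were lower, the counts were 230 (4.51% of those tested), 311, 424 and 233. Taken alone over all tested genes, p-nitrophenol gave 13% higher and 11.9% lower, m-nitrophenol 8.26% and 9.65%, and o-nitrophenol 13.8% and 18.7%. All measured arrays had 1 sign for 655 of the genes that were higher and 741 of those that were lower (12.9% and 14.5% of the genes tested). Leaving out all 3 arrays numbered 1 gave 1300 higher and 1274 lower in the shared response, with 1019 of the 1108 higher and 1071 of the 1198 lower genes called again. In every isomer alone the counts were then 424 higher and 433 lower.

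**Figure D1:**
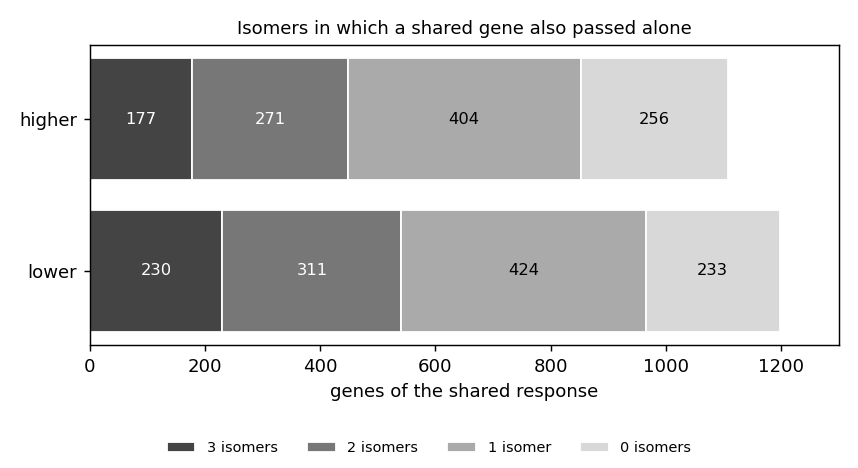
Number of genes of the shared response (x axis) that were higher or lower, divided by the number of isomers in which the gene also passed alone at an adjusted p under 0.05. The darkest blocks hold the 177 higher and 230 lower genes that passed in all 3 isomers, and the palest the 256 and 233 that passed in none.

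The largest shared rises are given for the 15 highest called genes that have a standard name and 1 sign on every measured array, and the falls likewise. For lack of 1 sign this leaves out HSP26 (3.90), GRE2 (3.84) and FMP16 (3.36), and YEL073C (3.45) for lack of a standard name. STR3, which encodes cystathionine beta-lyase of methionine synthesis, read 4.01 and 5.34 on p-nitrophenol arrays 2 and 3, 3.77 and 4.08 on m-nitrophenol arrays 2 and 3, and 9.30, 6.65 and 6.76 on o-nitrophenol arrays 1, 2 and 3. Its shared mean was 5.39 ± 0.35 (standard error, 7 arrays), a 41.9-fold rise with an adjusted p of 2.03e-05 in the limma fit. OSI1 read 6.04 and 6.83 on p-nitrophenol arrays 2 and 3, 4.56 and 4.70 on m-nitrophenol arrays 2 and 3, and 4.44 and 5.48 on o-nitrophenol arrays 2 and 3. All 6 of its values lay above 4, its shared mean was 5.34 ± 0.22 (adjusted p 7.81e-06), and it had no value on any array numbered 1. GPG1, which encodes a protein that associates with the G protein alpha subunit Gpa2, read 6.06, 2.17 and 3.42 on p-nitrophenol arrays 1, 2 and 3, 4.17, 3.95 and 4.57 on m-nitrophenol arrays 1, 2 and 3, and 6.53, 6.21 and 5.86 on o-nitrophenol arrays 1, 2 and 3. Every array was high for GPG1, and the shared mean was 4.77 ± 0.32 (adjusted p 7.45e-06).

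SNC2, a vesicle SNARE gene of secretion, had the smallest standard error of these 15 rises. It read 4.11, 3.38 and 3.02 on p-nitrophenol arrays 1, 2 and 3, 3.18, 3.08 and 2.49 on m-nitrophenol arrays 1, 2 and 3, and 4.38, 4.35 and 4.14 on o-nitrophenol arrays 1, 2 and 3. The 9 values spanned under 2 log2 units, and the shared mean was 3.57 ± 0.16, an 11.9-fold rise with an adjusted p of 5.7e-07. By contrast the stress gene DDR2 read 4.0, 2.53 and 2.95 on p-nitrophenol arrays 1, 2 and 3, 1.98, 3.02 and 2.96 on m-nitrophenol arrays 1, 2 and 3, and 8.95, 4.92 and 4.63 on o-nitrophenol arrays 1, 2 and 3. All 9 were high, but o-nitrophenol array 1 stood far above the rest, and the shared mean of 3.99 ± 0.40 (adjusted p 5.04e-05) includes it. HSP12, which encodes a small membrane-associated stress protein, read 4.45, 1.50 and 1.82 on p-nitrophenol arrays 1, 2 and 3, 2.61, 3.63 and 3.99 on m-nitrophenol arrays 1, 2 and 3, and 7.17, 5.40 and 4.66 on o-nitrophenol arrays 1, 2 and 3, and its shared mean was 3.92 ± 0.34.

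The other rises among these 15 were SPS100, a spore wall gene (4.23 ± 0.22), NQM1, a transaldolase gene (3.96 ± 0.54), CIS1 (3.91 ± 0.46), INO1, which encodes the inositol-3-phosphate synthase (3.47 ± 0.39), and SIP18, a hydrophilin gene (3.33 ± 0.30). MET28, a cofactor of the sulfur regulator Met4 (3.26 ± 0.59), CPP3 (3.24 ± 0.34), PBI2, an inhibitor of vacuolar proteinase B (3.17 ± 0.30), and URA10, the minor orotate phosphoribosyltransferase (3.17 ± 0.50), completed them. Their adjusted p-values ran from 3.65e-06 for SPS100 to 0.00168 for MET28. The lowest array of INO1 was 0.08, on p-nitrophenol array 1, and the highest of MET28 was 8.29, on o-nitrophenol array 1, against 2.29 and 2.86 on o-nitrophenol arrays 2 and 3.

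The steepest falls were in genes of lipid elongation, the cell wall, guanine nucleotides and the ribosome. ELO3, which encodes the elongase that makes very-long-chain fatty acids of sphingolipids, read -5.93 and -3.80 on p-nitrophenol arrays 2 and 3, -5.05 and -5.97 on m-nitrophenol arrays 2 and 3, and -4.87, -5.29 and -4.93 on o-nitrophenol arrays 1, 2 and 3. Its shared mean was -5.13 ± 0.27, a 35.1-fold fall (adjusted p 9.09e-06, 7 arrays). SRL1, a cell wall mannoprotein gene, read -5.53, -5.85 and -5.64 on p-nitrophenol arrays 1, 2 and 3, -5.07 and -5.17 on m-nitrophenol arrays 2 and 3, and -4.32, -3.74 and -3.49 on o-nitrophenol arrays 1, 2 and 3. None of its 8 values was above -3.49, and it fell by 4.88 ± 0.16 (adjusted p 3.11e-07). GUA1, which encodes GMP synthase, the last step of guanine nucleotide synthesis, read -5.56, -4.14 and -4.34 on p-nitrophenol arrays 1, 2 and 3, -4.66 and -5.99 on m-nitrophenol arrays 2 and 3, and -3.95, -4.07 and -3.95 on o-nitrophenol arrays 1, 2 and 3, and fell by 4.67 ± 0.22 (adjusted p 2.6e-06).

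Genes for proteins of the ribosome itself held 5 further places among the 15 falls named. RPL4A, for a protein of the large ribosomal subunit, read -4.56, -4.24 and -4.0 on p-nitrophenol arrays 1, 2 and 3, -4.68, -5.52 and -4.70 on m-nitrophenol arrays 1, 2 and 3, and -2.45, -2.57 and -3.26 on o-nitrophenol arrays 1, 2 and 3. All 9 values were low, and the gene fell by 4.0 ± 0.16 with an adjusted p of 3.11e-07. Its near-identical copy RPL4B, whose probe can bind the same transcripts, fell by 3.71 ± 0.20. RPL5 fell by 4.0 ± 0.34, RPS0B by 3.53 ± 0.34 and RPL2B by 3.38 ± 0.30. 

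NOP1, which encodes fibrillarin, the methyltransferase of ribosomal RNA, fell by 3.91 ± 0.20. The remaining falls of that size were in ERG3, the C-5 sterol desaturase gene (-3.75 ± 0.38), YEF3, translation elongation factor 3 (-3.64 ± 0.37), NSR1, a nucleolar protein gene (-3.60 ± 0.39), SSB2, a ribosome-associated Hsp70 (-3.59 ± 0.39), SIM1 of the SUN family (-3.59 ± 0.29) and INA1 (-3.55 ± 0.28). ERG3 was lowered on every array, from -5.02 to -0.65, with its weakest value on p-nitrophenol array 1. YEF3 and SSB2 had their weakest values, -0.60 and -0.95, on m-nitrophenol array 1. Adjusted p-values of the genes in this group ran from 7.45e-06 for NOP1 to 0.000179 for NSR1.

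**Figure D2:**
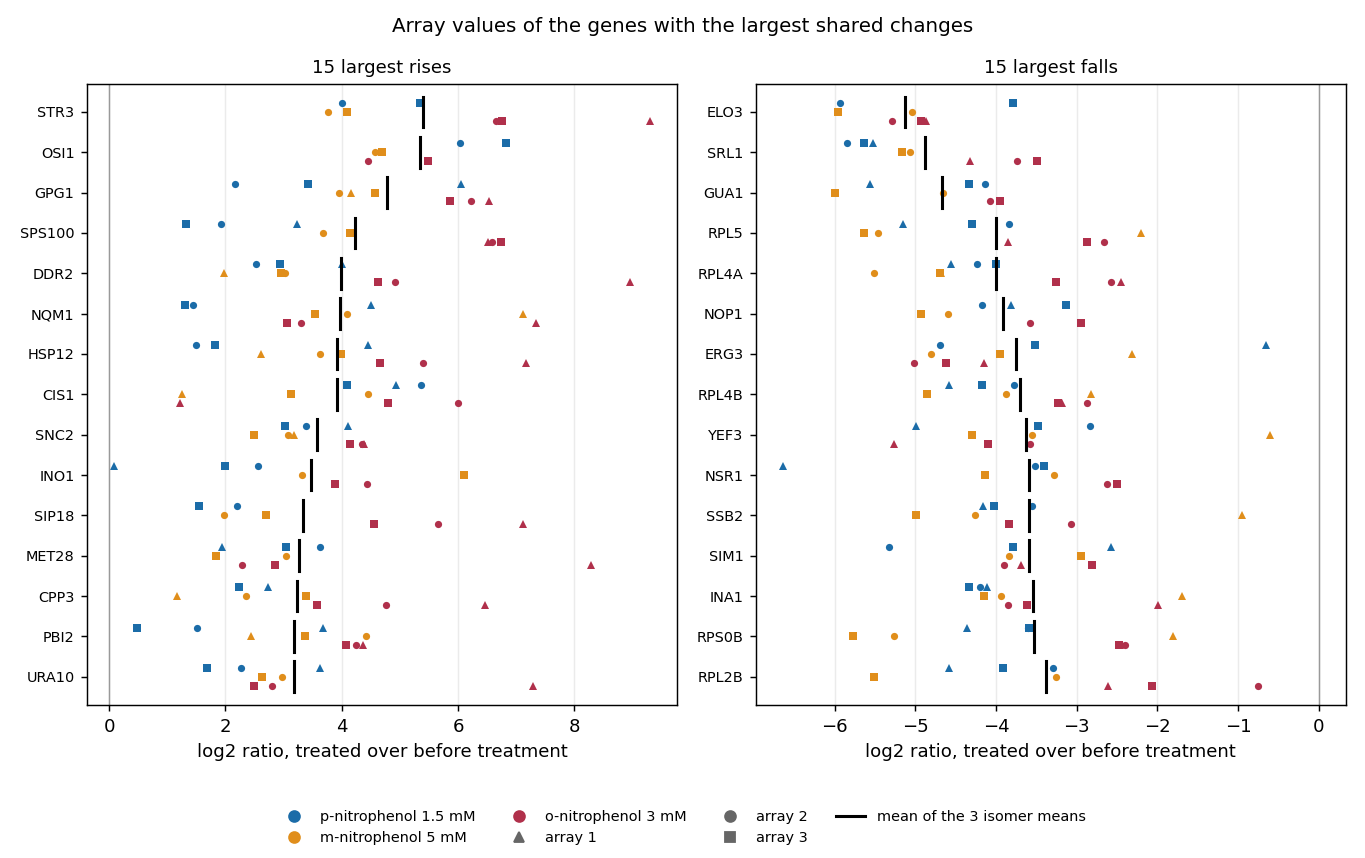
Log2 ratio of treated over before treatment (x axis) on every array with a value, for the 15 genes with the largest shared rises (left) and falls (right). Colour marks the isomer, shape the array number, and the black bar the mean of the 3 isomer means; the genes were chosen for having 1 sign on every array, and the triangles of arrays numbered 1 often lie apart from the other arrays of their isomer.

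Genes of the cytosolic ribosome were mostly lower, and none was called higher. Of 71 tested genes for proteins of the large cytosolic ribosomal subunit 64 were lower and 0 higher, with a median shared mean of -2.05, and of 52 for the small subunit 46 were lower and 0 higher, with a median of -2.27 (all tested genes: 23.5% lower, 21.7% higher, median 0.01). RPS15, of the small subunit, ranged from -4.91 to -2.04 and fell by 3.07 ± 0.25. RPP0, of the ribosomal stalk, fell by 3.29 ± 0.27, and ASC1, the yeast RACK1 protein of the small subunit, by 3.12 ± 0.27. The list medians of single arrays differed widely within an isomer. Large-subunit list medians were -2.71, -1.89 and -2.42 on p-nitrophenol arrays 1, 2 and 3. They were -1.25, -2.97 and -4.27 on the m-nitrophenol arrays and -2.38, -0.06 and -0.67 on the o-nitrophenol arrays. On o-nitrophenol array 2 the list as a whole thus stood near 0, and without o-nitrophenol array 1 the number of lower genes was 48 in place of 64. Many ribosomal proteins have paired near-identical gene copies that can share a probe's signal.

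Ribosome assembly and translation genes were also mostly lower. Of 66 tested nucleolar assembly factors 55 were lower and 0 higher (median -1.41), and list medians ran from -2.32 to -0.72 over the 9 arrays. BRX1 fell by 3.36 ± 0.27, NOP7 by 2.54 ± 0.20 and the helicase gene DBP3 by 2.42 ± 0.19. RNA polymerase I and III subunits were lower in 14 of 21 cases and higher in 1 (median -0.95). RPA49 fell by 3.31 ± 0.21 and RPA190, the largest subunit of polymerase I, by 2.04 ± 0.18, while RPC40, a subunit of both polymerases, fell by 2.02 ± 0.22.

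Translation initiation and elongation factors were lower for 27 of 36 genes and higher for 1 (median -1.19). HYP2, for the factor eIF5A, read -1.22, -1.98 and -1.97 on p-nitrophenol arrays 1, 2 and 3, -1.13, -1.69 and -1.85 on m-nitrophenol arrays 1, 2 and 3, and -2.66, -2.19 and -2.13 on o-nitrophenol arrays 1, 2 and 3. All 9 values were below -1, and the gene fell by 1.87 ± 0.15. TEF4, TIF5 and TIF1, for the factors eEF1B gamma, eIF5 and eIF4A, had shared means of -2.70 ± 0.20, -1.58 ± 0.15 and -1.91 ± 0.19. Aminoacyl-tRNA synthetase genes were lower for 16 of 19 and higher for 0 (median -1.36). DED81, the asparaginyl-tRNA synthetase gene, fell by 3.35 ± 0.19, and both subunits of the phenylalanyl enzyme fell, FRS1 by 1.71 ± 0.16 and FRS2 by 2.00 ± 0.17.

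Mitochondrial ribosomal protein genes were more often higher than lower. Of 66 tested genes 23 were higher and 4 lower, with a median of 0.39. The medians of the isomer means were 0.55 in p-nitrophenol, 0.55 in m-nitrophenol and -0.02 in o-nitrophenol. On o-nitrophenol arrays 1, 2 and 3 the list medians were -0.39, 0.34 and -0.002, so the list as a whole did not rise in that isomer. RSM18 rose by 1.48 ± 0.15, MRPL33 by 1.90 ± 0.23 and MRPL51 by 1.26 ± 0.19, whereas MRP4 fell by 1.59 ± 0.17. With the isomer as a random block the count higher was 10, and it was 12 to 14 without any 1 of m-nitrophenol arrays 2 and 3 and o-nitrophenol arrays 2 and 3.

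Genes of nucleotide synthesis were mostly lower. Of 20 tested genes of purine and GMP synthesis 19 were lower and 0 higher (median -1.67), and list medians on single arrays ran from -2.56 to -0.72. After GUA1 the steepest calls by p were for IMP dehydrogenase: IMD3 fell by 2.35 ± 0.15 and IMD2 by 3.14 ± 0.24, and these near-identical genes can share a probe's signal. PRS1, for a subunit of the enzyme that makes phosphoribosyl pyrophosphate, fell by 1.68 ± 0.15. Of 9 pyrimidine genes 5 were lower and 1 higher (median -1.09). URA7, a CTP synthase gene, fell by 3.13 ± 0.20. URA5, the major orotate phosphoribosyltransferase gene, fell by 1.85 ± 0.21, opposite to the rise of its minor counterpart URA10.

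Genes of sterol synthesis and of fatty acid synthesis and elongation were mostly lower. Of 24 tested ergosterol genes 16 were lower and 1 higher (median -1.59), and of 12 fatty acid synthesis and elongation genes 9 were lower and 1 higher (median -0.97). ERG2, the C-8 sterol isomerase gene, read -2.08, -2.39 and -2.57 on p-nitrophenol arrays 1, 2 and 3, -1.69, -2.27 and -2.56 on m-nitrophenol arrays 1, 2 and 3, and -3.41, -3.37 and -2.82 on o-nitrophenol arrays 1, 2 and 3. All 9 values were below -1.6, and it fell by 2.57 ± 0.15. ERG5, the C-22 sterol desaturase gene, fell by 2.17 ± 0.20, and ERG13, the HMG-CoA synthase gene of the early pathway, by 1.77 ± 0.19. ELO2, the sister elongase of ELO3, fell by 3.30 ± 0.22 and FAA4, an acyl-CoA synthetase gene, by 2.28 ± 0.18.

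Among cell wall genes 21 of 34 were lower and 3 higher (median -1.02). GAS1 and GAS3, of the family that elongates wall glucan, had shared means of -2.66 ± 0.21 and -3.32 ± 0.19. UTR2, which links chitin to glucan, fell by 3.09 ± 0.21. Its isomer means were -3.00 in p-nitrophenol, -1.90 in m-nitrophenol and -4.37 in o-nitrophenol, all below 0.

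Of 18 tested cyclin and S-phase genes 10 were lower, 0 were higher and 8 did not pass (median -0.93). CLN2, a G1 cyclin gene, read -3.19 and -2.92 on p-nitrophenol arrays 2 and 3, -3.27 and -2.82 on m-nitrophenol arrays 2 and 3, and -2.40, -3.34 and -2.73 on o-nitrophenol arrays 1, 2 and 3. The 7 values lay within 1 log2 unit of each other, and the gene fell by 2.97 ± 0.19. The G1 cyclin gene CLN3 fell by 3.02 ± 0.38, the mitotic cyclin gene CLB2 by 2.72 ± 0.27 and RNR1, for the large subunit of ribonucleotide reductase, by 3.14 ± 0.18. Histone genes were lower for 6 of 9 and higher for 0 (median -0.64), led by HTB2 with -2.55 ± 0.23. The histone count was 3 without p-nitrophenol array 1, p-nitrophenol array 3 or m-nitrophenol array 3, and the histone median was -0.41 without the arrays numbered 1.

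Several transport and signalling lists had more lower than higher genes. Of 17 phosphate response genes 11 were lower and 2 higher (median -0.96), among them the acid phosphatase gene PHO12 (-2.62 ± 0.25) and the polyphosphate gene VTC3 (-1.43 ± 0.16), while PHM8 rose by 1.91 ± 0.15. Of 16 pheromone and mating genes 9 were lower and 1 higher (median -0.89). FAR1, which halts the cycle on pheromone, fell by 1.88 ± 0.21. SAG1, the alpha-agglutinin gene, had isomer means of -3.73 in p-nitrophenol, -0.76 in m-nitrophenol and -3.38 in o-nitrophenol and fell by 2.62 ± 0.21. Polyamine genes were lower for 6 of 13 and higher for 1 (median -1.06): OAZ1, the antizyme gene that restrains polyamine synthesis, rose by 1.95 ± 0.23, and the spermidine and spermine synthase genes SPE3 and SPE4 had shared means of -1.17 ± 0.18 and -1.33 ± 0.18.

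Amino acid synthesis divided. Of 44 genes of the Gcn4 pathways 19 were lower and 4 higher (median -0.59, and -0.35 without the arrays numbered 1), with ILV1, the threonine deaminase gene, at -2.40 ± 0.24, THR1, homoserine kinase, at -2.07 ± 0.24, and ARO4, of aromatic amino acid synthesis, at -1.92 ± 0.19. Gcn4 list medians were -1.06, 0.08 and 0.08 on p-nitrophenol arrays 1, 2 and 3, so in that isomer only array 1 was below 0. They were -0.57, -0.75 and -0.90 on the m-nitrophenol arrays and -0.30, -0.43 and -0.60 on the o-nitrophenol arrays. Of 28 sulfur amino acid genes, by contrast, 12 were higher and 2 lower (median 0.90, and 0.92 without the arrays numbered 1). The list medians were uneven: -0.27, 1.64 and 1.47 on p-nitrophenol arrays 1, 2 and 3. They were 1.02, 0.85 and 0.78 on the m-nitrophenol arrays and 4.10, 0.16 and 0.27 on the o-nitrophenol arrays. MET17, which encodes the sulfhydrylase that makes homocysteine, read 0.47, 3.76 and 3.50 on p-nitrophenol arrays 1, 2 and 3, 2.57, 2.93 and 2.69 on m-nitrophenol arrays 1, 2 and 3, and 4.58, 1.63 and 1.92 on o-nitrophenol arrays 1, 2 and 3. Single arrays of 1 isomer differed by more than 2 log2 units, yet the 3 isomer means were 2.57 in p-nitrophenol, 2.73 in m-nitrophenol and 2.71 in o-nitrophenol, and MET17 rose by 2.67 ± 0.38 (adjusted p 0.000311). MUP1, the high-affinity methionine permease gene, rose by 2.12 ± 0.30, but it read -0.23 on p-nitrophenol array 1 and passed alone only in o-nitrophenol. Amino acid permeases were lower for 5 of 19 and higher for 1, and 13 did not pass. The share lower was near the 23.5% over all tested genes, so no fall of the list is read from it. TAT1 was at -1.19 ± 0.16 and GNP1 at -2.02 ± 0.31. The permease count lower was 3 without m-nitrophenol array 3.

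Genes for enzymes that act on reactive or foreign compounds were often higher. Of 19 tested aryl-alcohol and aldehyde dehydrogenase genes 14 were higher and 1 lower, with a median of 1.42, and list medians were above 1 on all 9 arrays (1.01 to 2.14). ARI1, an NADPH-dependent aldehyde reductase gene, read 3.03, 3.18 and 2.50 on p-nitrophenol arrays 1, 2 and 3, 2.89, 2.72 and 2.49 on m-nitrophenol arrays 1, 2 and 3, and 0.82, 2.95 and 2.76 on o-nitrophenol arrays 1, 2 and 3. All 9 were positive, and ARI1 rose by 2.59 ± 0.22. AAD4 and AAD15, of a family of near-identical putative aryl-alcohol dehydrogenase genes, rose by 2.42 ± 0.31 and 2.13 ± 0.20. ALD3, an aldehyde dehydrogenase gene, rose by 2.50 ± 0.25, with isomer means of 0.58 in p-nitrophenol, 2.08 in m-nitrophenol and 4.84 in o-nitrophenol.

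Glutathione genes were higher for 10 of 21 and lower for 3 (median 0.71). GRX1, a glutaredoxin gene, read 3.81, 2.78 and 2.33 on p-nitrophenol arrays 1, 2 and 3, 3.15, 2.16 and 1.99 on m-nitrophenol arrays 1, 2 and 3, and 3.28, 3.64 and 3.51 on o-nitrophenol arrays 1, 2 and 3. No array was below 1.9, and GRX1 rose by 2.96 ± 0.19 (adjusted p 6.82e-06). ECM4, an omega-class glutathione transferase gene, rose by 3.00 ± 0.23, and GLO2, a glyoxalase II gene, by 1.45 ± 0.19. Thioredoxin, peroxiredoxin, catalase and superoxide dismutase genes were higher for 9 of 22 and lower for 2 (median 0.96). The medians of their isomer means were 0.36 in p-nitrophenol, 0.17 in m-nitrophenol and 1.67 in o-nitrophenol. The peroxiredoxin genes PRX1 and AHP1 rose by 1.86 ± 0.20 and 1.86 ± 0.21, and the glutathione peroxidase gene GPX1 by 2.16 ± 0.26. Of 9 nitroreductase-like and quinone reductase genes 3 were higher and 1 lower. The share called, 44.4%, was near the 45.3% over all tested genes, so no rise of the list is read from it. Among its members the quinone reductase genes ZTA1 and LOT6 rose by 1.53 ± 0.15 and 1.37 ± 0.20.

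In the pentose phosphate pathway, a source of NADPH, 2 of 12 genes were higher and 3 lower (median -0.07). RKI1, the ribose-5-phosphate isomerase gene, fell by 3.27 ± 0.19, RPE1, the epimerase gene, by 1.22 ± 0.15 and the transketolase gene TKL1 by 1.96 ± 0.26, while NQM1 rose.

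Of 37 tested genes of the Msn2 and Msn4 programme 23 were higher and 1 lower, with a median of 1.67. DDR48 read 3.38, 2.16 and 3.24 on p-nitrophenol arrays 1, 2 and 3, 3.36, 3.14 and 2.51 on m-nitrophenol arrays 1, 2 and 3, and 3.52, 3.52 and 3.46 on o-nitrophenol arrays 1, 2 and 3. All 9 lay between 2.16 and 3.52, and it rose by 3.14 ± 0.17 (adjusted p 2.6e-06). MOH1 rose by 3.01 ± 0.25. The list median itself was uneven: 2.74, 0.03 and -0.08 on p-nitrophenol arrays 1, 2 and 3, 1.76, 1.42 and 1.47 on the m-nitrophenol arrays, and 4.51, 2.70 and 2.09 on the o-nitrophenol arrays. On 2 of the 3 p-nitrophenol arrays it thus lay near 0. The median of the shared means was the highest of the 43 lists over all arrays, but without the arrays numbered 1 it was 0.95, below 1.37 for aryl-alcohol and aldehyde dehydrogenases, 1.02 for the proteasome and 1.01 for thioredoxin and related genes.

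Heat shock proteins and co-chaperones were higher for 10 of 30 and lower for 1 (median 0.57), and 19 did not pass. The share called in either direction was 36.7%, below the 45.3% over all tested genes. Without the arrays numbered 1 the count higher was 14. The medians of the isomer means of this list were 0.14 in p-nitrophenol, 0.28 in m-nitrophenol and 1.38 in o-nitrophenol. HSP104, the disaggregase gene, read 0.98, 0.67 and 1.15 on p-nitrophenol arrays 1, 2 and 3, 1.46, 1.61 and 1.11 on m-nitrophenol arrays 1, 2 and 3, and 4.40, 4.29 and 3.35 on o-nitrophenol arrays 1, 2 and 3. Every array was positive, and it rose by 2.11 ± 0.16. Genes for the Hsp90 partners SBA1 and CPR6 both rose, by 1.60 ± 0.18 and 1.60 ± 0.19, and SSB2 was the member that fell. Trehalose and glycogen genes, which often accompany a stress response, were higher for 2 of 20 and lower for 3, both below the share over all tested genes. NTH1, a trehalase gene, rose by 0.85 ± 0.22 (0.47 without the arrays numbered 1), whereas PGM1, a phosphoglucomutase gene, had -0.92 ± 0.16 and TPS3, of the trehalose synthase complex, -0.70 ± 0.17. Without the arrays numbered 1 the count lower in that list was 9, and it was 6 without o-nitrophenol array 1.

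Proteasome, ubiquitin and autophagy genes were higher in many cases and rarely lower. Of 43 tested proteasome genes 29 were higher and 0 lower, with a median of 0.75. RPN12, of the regulatory lid, read 1.74, 1.58 and 1.58 on p-nitrophenol arrays 1, 2 and 3, 1.69, 1.99 and 1.57 on m-nitrophenol arrays 1, 2 and 3, and 1.53, 0.95 and 1.36 on o-nitrophenol arrays 1, 2 and 3. The values ran from 0.95 to 1.99, and RPN12 rose by 1.55 ± 0.13 (adjusted p 2.38e-05). RPN6, also of the lid, rose by 1.35 ± 0.15, and the core particle genes PUP2 and PRE1 by 1.83 ± 0.21 and 1.67 ± 0.18. Proteasome list medians were 0.78, 0.72 and 0.84 on p-nitrophenol arrays 1, 2 and 3. They were 0.20, 1.02 and 1.03 on the m-nitrophenol and -0.16, 1.49 and 1.36 on the o-nitrophenol arrays, and without the arrays numbered 1 the count higher was 37.

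Ubiquitin and endoplasmic reticulum degradation genes were higher for 10 of 22 and lower for 1 (median 0.56). TMC1 rose by 1.16 ± 0.16, the ubiquitin-conjugating enzyme genes UBC5 and UBC8 by 1.39 ± 0.22 and 1.62 ± 0.31, and DER1 by 1.12 ± 0.19. The count higher was 6 without o-nitrophenol array 3. Autophagy genes were higher for 13 of 26 and lower for 0 (median 0.63). ATG8, for the ubiquitin-like protein of autophagosome membranes, read 3.04, 3.11 and 2.25 on p-nitrophenol arrays 1, 2 and 3, 3.82, 2.75 and 2.79 on m-nitrophenol arrays 1, 2 and 3, and 4.39, 0.92 and 2.76 on o-nitrophenol arrays 1, 2 and 3. All 9 were positive and ATG8 rose by 2.87 ± 0.30, and ATG20, a sorting nexin gene, rose by 1.37 ± 0.14 with 9 values from 0.99 to 1.71. Vacuolar protease genes and inhibitors were higher for 5 of 11 and lower for 2, but the list median was -0.18, with 6 shared means below 0. PAI3, the inhibitor gene of proteinase A, rose by 3.14 ± 0.27. The vacuolar count higher was 3 without the arrays numbered 1.

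Drug resistance genes under Pdr1 and Pdr3 were higher for 10 of 23 and lower for 3 (median 0.27, and 0.79 without the arrays numbered 1). RTA1 read 1.60, 2.23 and 2.58 on p-nitrophenol arrays 1, 2 and 3, 2.97 and 3.03 on m-nitrophenol arrays 2 and 3, and 1.60, 2.92 and 2.71 on o-nitrophenol arrays 1, 2 and 3. All were high, and it rose by 2.52 ± 0.20. RSB1, which moves sphingoid bases across the membrane, rose by 2.52 ± 0.24. Genes of the weak acid and plasma membrane list were higher for 5 of 13 and lower for 0, with PMP3 at 1.71 ± 0.19 and YGP1 at 2.22 ± 0.29. The share called was 38.5%, below the 45.3% over all tested genes. Without the arrays numbered 1 the count lower in that list was 2, and its median was 0.35 in place of 0.55.

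**Figure D3:**
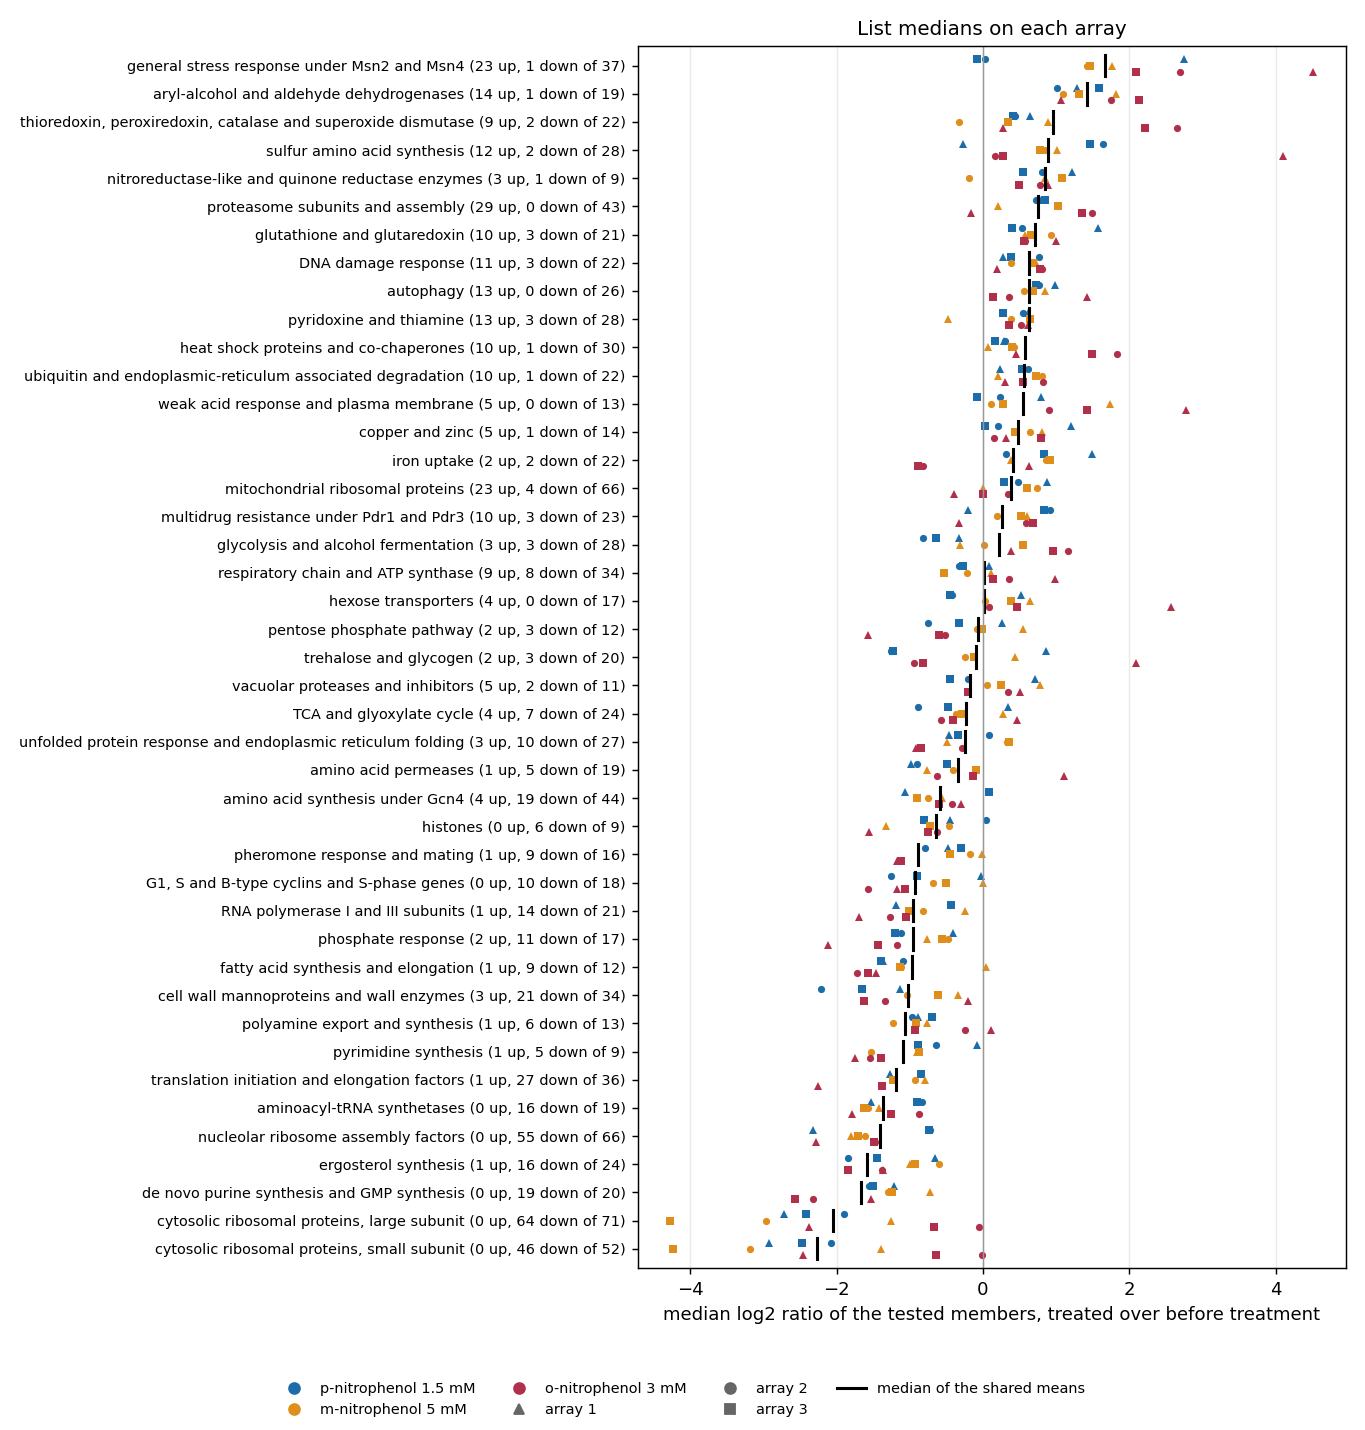
Median log2 ratio of the tested members of each of 43 gene lists (rows) on each of the 9 arrays, treated over before treatment, with the median of the shared means as a black bar. Colour marks the isomer and shape the array number; the 2 cytosolic ribosome lists lie lowest and the general stress list highest (not so without the arrays numbered 1), with single arrays of both near 0.

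Metal and vitamin genes gave small groups. Copper and zinc genes were higher for 5 of 14 and lower for 1. The metallothionein genes CUP1-1 and CUP1-2, near-identical copies, rose by 2.77 ± 0.23 and 2.82 ± 0.22, with CUP1-1 isomer means of 1.33 in p-nitrophenol, 1.51 in m-nitrophenol and 5.46 in o-nitrophenol. Iron uptake genes were higher for 2 of 22 and lower for 2, both below the share over all tested genes: the copper chaperone gene ATX1 rose by 2.24 ± 0.28 and the mitochondrial iron carrier gene MRS4 by 1.18 ± 0.16, while the ferric reductase gene FRE1 fell by 1.85 ± 0.21 and the ferroxidase gene FET3 by 1.35 ± 0.27. FET3 lost its call without m-nitrophenol array 1, at -1.08, where its isomer means no longer had 1 sign. Pyridoxine and thiamine genes were higher for 13 of 28 and lower for 3 (median 0.62). SNZ1, of pyridoxine synthesis, rose by 2.47 ± 0.24 with isomer means of 3.76 in p-nitrophenol, 3.39 in m-nitrophenol and 0.26 in o-nitrophenol. THI11, one of several near-identical thiamine genes, rose by 1.63 ± 0.20, and PHO3, the acid phosphatase gene for thiamine phosphates, fell by 2.84 ± 0.30.

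Central carbon and respiratory lists are set against the 21.7% higher and 23.5% lower over all tested genes, and nothing is read from shares near these. Of 28 glycolysis and fermentation genes 3 were higher and 3 lower (median 0.22, and 0.34 without the arrays numbered 1), and the others did not pass with 1 sign. TDH1 and ADH5 rose by 2.01 ± 0.22 and 1.41 ± 0.25, and ADH4 and HXK2 had shared means of -1.30 ± 0.17 and -0.67 ± 0.13. Hexose transporters were higher for 4 of 17 (2 without m-nitrophenol array 2) and lower for 0, with HXT9 at 1.26 ± 0.20 and the low-affinity transporter gene HXT3 at 0.92 ± 0.16. Of 24 genes of the TCA and glyoxylate cycles 4 were higher and 7 lower. ACO1, the aconitase gene, read -2.92, -1.02 and -2.27 on p-nitrophenol arrays 1, 2 and 3, -1.61, -2.22 and -2.52 on m-nitrophenol arrays 1, 2 and 3, and -1.92, -1.01 and -1.84 on o-nitrophenol arrays 1, 2 and 3. All 9 were below -1, and ACO1 fell by 1.93 ± 0.21, while PCK1, of gluconeogenesis, rose by 1.51 ± 0.19.

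Respiratory chain genes were higher for 9 of 34 and lower for 8. COR1 and CYT1, of complex III, fell by 1.61 ± 0.18 and 1.67 ± 0.21, whereas the ATP synthase genes ATP15 and ATP18 rose by 2.13 ± 0.22 and 1.23 ± 0.17. The unfolded protein response and folding list was higher for 3 of 27 and lower for 10. SEC61, the translocation pore gene, fell by 1.94 ± 0.20 and PMT1, a protein mannosyltransferase gene, by 1.24 ± 0.18, while SSS1, another pore subunit, rose by 1.21 ± 0.20 and CPR5, an endoplasmic reticulum cyclophilin gene, by 1.21 ± 0.17. Without the arrays numbered 1 the count higher in that list was 9.

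DNA damage genes were higher for 11 of 22 and lower for 3 (median 0.63). MAG1, the 3-methyladenine glycosylase gene, rose by 1.72 ± 0.21, RAD54, of recombination repair, by 1.72 ± 0.19 and DDI3 by 2.05 ± 0.26. RAD54 had no value on any array numbered 1 and ranged from 1.13 to 2.06 on the other 6. The count higher was 7 without m-nitrophenol array 2 or o-nitrophenol array 3, and also 7 with the isomer as a random block.

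Some genes known for drug, nitro-compound and stress handling were followed whatever their result. PDR5, the main drug efflux pump gene, read 3.20, 3.78 and 3.95 on p-nitrophenol arrays 1, 2 and 3, 3.77, 3.10 and 3.67 on m-nitrophenol arrays 1, 2 and 3, and -1.04, 1.07 and 1.18 on o-nitrophenol arrays 1, 2 and 3. The p- and m-nitrophenol arrays were all high and o-nitrophenol array 1 was negative, and PDR5 rose by 2.52 ± 0.23 in the shared mean (adjusted p 3.55e-05). SNQ2, another efflux pump gene, read -1.55, 3.48 and 3.17 on p-nitrophenol arrays 1, 2 and 3, 0.84, 1.80 and 2.24 on m-nitrophenol arrays 1, 2 and 3, and -0.83, 0.48 and -0.97 on o-nitrophenol arrays 1, 2 and 3. Its signs differed between and within isomers, and it was not called (shared mean 0.96 ± 0.46, adjusted p 0.103). YHB1, the flavohemoglobin gene of nitric oxide detoxification, read -2.09, -4.24 and -3.28 on p-nitrophenol arrays 1, 2 and 3, -2.45, -3.88 and -4.44 on m-nitrophenol arrays 1, 2 and 3, and -2.75, -2.71 and -3.35 on o-nitrophenol arrays 1, 2 and 3. Every array was below -2, and YHB1 fell by 3.24 ± 0.25, a 9.47-fold fall (adjusted p 1.67e-05).

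The nitroreductase-like gene FRM2 was not called, with a shared mean of 0.11 ± 0.16 and values from -0.19 to 0.81. The old yellow enzyme gene OYE2 rose by 0.97 ± 0.32 (adjusted p 0.028), with arrays from -0.50 to 2.89. Without any 1 of the arrays numbered 2 or 3 the adjusted p of OYE2 was between 0.0604 and 0.0843, and without all arrays numbered 1 its shared mean was 1.60. OYE3 had a shared mean of 1.05 ± 0.22 and an adjusted p of 0.00363, but its m-nitrophenol mean was -0.04, so it fell outside the rule of 1 sign. HSP26, a small heat shock protein gene, read 5.93, -0.92 and -1.13 on p-nitrophenol arrays 1, 2 and 3, 3.36, 4.70 and 4.23 on m-nitrophenol arrays 1, 2 and 3, and 8.41, 5.25 and 5.25 on o-nitrophenol arrays 1, 2 and 3. All m- and o-nitrophenol arrays were high and p-nitrophenol arrays 2 and 3 were negative, and the shared mean was 3.90 ± 0.66 (adjusted p 0.000879). Without p-nitrophenol array 1 the p-nitrophenol mean of HSP26 was below 0, which ended the call at a mean over isomers of 3.13. TRX2, a thioredoxin gene, rose by 2.29 ± 0.30, GTT2, a glutathione transferase gene, by 1.92 ± 0.24 and RPN4, the activator of proteasome genes, by 1.08 ± 0.22, and each was positive on all its arrays. HBN1 and PMA1 were not analysed here.

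**Figure D4:**
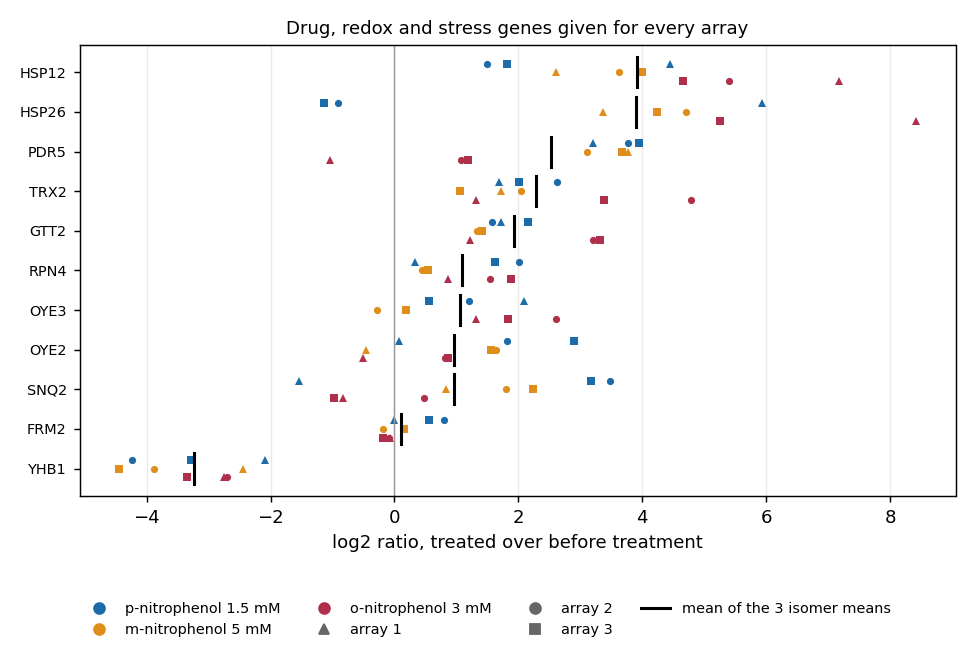
Log2 ratio of treated over before treatment (x axis) on each array for 11 genes of drug efflux, redox and stress handling, with the shared mean as a black bar, colour for the isomer and shape for the array number. HSP12 and TRX2 lie above 0 and YHB1 below 0 on all 9 arrays, whereas SNQ2, FRM2 and OYE2 have points on both sides.

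Being shared did not mean being alike in size. The range of the 3 isomer means had a median of 0.82 log2 units among the genes that were higher and 0.91 among those that were lower, against 0.87 over all tested genes. It was under 1 for 702 and 672 genes, and over 2 for 83 and 84. Among genes on all 9 arrays, a narrow range was seen in MET17 (0.16) and in TOM7, of the mitochondrial import pore, with isomer means of 1.57 in p-nitrophenol, 1.75 in m-nitrophenol and 1.60 in o-nitrophenol. KAP123, the importer of ribosomal proteins, read -2.98, -3.74 and -3.10 on p-nitrophenol arrays 1, 2 and 3, -2.49, -3.63 and -3.33 on m-nitrophenol arrays 1, 2 and 3, and -3.21, -2.30 and -3.27 on o-nitrophenol arrays 1, 2 and 3. All 9 values were low, and it fell by 3.12 ± 0.18. Wide ranges were seen in CUP1-1 (4.14) and SNZ1 (3.51), whose arrays were all positive, and in HSP26 (5.01), whose were not. EGO4 had the widest range of all called genes, with isomer means of 0.54 in p-nitrophenol, 1.24 in m-nitrophenol and 6.27 in o-nitrophenol and arrays of both signs. These shared means rest mostly on 1 or 2 of the isomers.

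Genes without a standard name made up 99 of the genes that were higher and 48 of those that were lower, of 377 tested. YEL073C read 1.33, 3.13 and 2.46 on p-nitrophenol arrays 1, 2 and 3, 2.40 and 2.53 on m-nitrophenol arrays 2 and 3, and 6.44, 5.35 and 4.91 on o-nitrophenol arrays 1, 2 and 3. All 8 values were positive and it rose by 3.45 ± 0.24 (adjusted p 1.69e-05). YMR090W rose by 3.14 ± 0.23 and YPL088W by 3.01 ± 0.17. The steepest falls in this class were smaller: YNL058C fell by 1.98 ± 0.25, YPL245W by 1.92 ± 0.18 and YHR020W by 1.84 ± 0.23.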

How the data were processed

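The deposited values are log2 ratios, which the authors normalized by LOWESS with spots of flag 0, per the labels. Neither their direction nor any background correction is stated in the sources used here. The authors' merge of both scans and the spot intensities were not used here. Values were read from the series value table, where 13 sit at a floor, the log2 of a ratio of 0.01. The 2 scans of an array (high and low laser power, 766 to 6080 probe values each) were averaged, and so were probes of 1 gene. Of 6912 probes 5513 had 1 gene symbol, 1399 none and 0 several in an older annotation of the array, and 5360 of 5365 genes matched the RefSeq table of the R64 assembly. Coordinates and promoter or protein sequences were not used here.

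The 9 arrays were fitted with 1 mean per isomer in limma 3.58.1 (R 4.3.3) for the 5096 genes with values on at least 2 arrays of each isomer. Residual degrees of freedom were 6 for the 1757 genes on all 9 arrays and fewer for the others, with a prior of 4.406. The equal-weight mean of the 3 isomer means was tested against 0, with Benjamini-Hochberg adjustment over all 5096 genes, a threshold of 0.05 and 1 sign in the isomer means. The same fit gave each isomer against 0. Errors are standard errors, with a median of 0.207, and p-values measure the spread between these samples. On simulated data with the same missing values, 50 changed genes of each size in 5096 genes were called in 12%, 48%, 88% and 100% of cases at log2 changes of 0.5, 1, 2 and 4, and 10 of 4896 unchanged genes were called. Each changed gene there had the same shift on all 9 arrays, with independent noise. In the data isomer means differed and 45.3% of the tested genes were called, so these rates need not hold for them.

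The members, the 43 gene lists and the named genes were chosen with earlier results of these data known. Named were the 15 largest rises and falls among called genes with a standard name and 1 sign on every measured array, the 3 largest of each direction without a standard name, up to 4 called members of lowest p of a described list, and 13 genes given whatever their result. KAP123, TOM7, EGO4, GRE2, FMP16 and the families described at the end were picked with their values in view. Alternatives were single scans, all scans with the array as a block (statmod 1.5.0), other normalizations, filters and sign rules, blocks by replicate number or isomer, and leaving out arrays or isomers.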

Additional observations from a re-analysis of the deposited data

Results flagged for a closer look

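The glycolysis and alcohol fermentation genes had list medians of opposite sign in 2 of the isomers. The medians were 0.39, 1.17 and 0.95 on o-nitrophenol arrays 1, 2 and 3 (0.909 for the isomer means), and -0.32, -0.83 and -0.64 on p-nitrophenol arrays 1, 2 and 3. Every o-nitrophenol array was thus above 0 and every p-nitrophenol array below it. The difference was not tested, and the doses differed.

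A signal was also present in probes that no comparison used. Of 418 tested probes without a gene symbol 157 passed the shared test, 106 higher and 51 lower, a share of 37.6% against 45.3% of the named genes. Their transcripts were not identified here. Outliers among single arrays were not looked for, since each isomer had 3 arrays.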

How the results depend on the processing

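No called named gene changed direction under 28 alternatives. Most named genes were chosen from this same fit, by size with 1 sign on every measured array or by low p. That choice favours a kept direction and call, so the counts that follow are no independent support. Of 5211 values of 192 named genes 5128 kept direction and side of the threshold. A further 78 no longer passed (22 of them under the rule of 1 sign on every measured array), and 4 passed anew. The last 1 was that of FRM2, not called in the main fit, which changed sign when p-nitrophenol was left out. Low-power scans alone tested 3776 genes and gave 750 lower in the shared response and 140 lower in every isomer alone, and 55.4% of their calls were higher. Values on all 9 arrays left 1757 genes, with 472 higher and 405 lower (87 and 83 in every isomer alone). Requiring 1 sign on every measured array left 655 higher and 741 lower. Without the arrays numbered 1 every isomer alone gave 424 higher and 433 lower. Leaving out 1 array gave 846 (without m-nitrophenol array 3) to 1151 higher and 949 to 1211 lower in the shared response, and 31 (without m-nitrophenol array 2) to 252 higher and 65 to 268 lower in every isomer alone. With the isomer as a random block 838 were higher and 920 lower. Deviations of same-numbered arrays correlated at 0.0608 to 0.366 over 9 pairs of arrays. Of these 8 were over 0.1, which leaves pairing possible, but the bar was over 0.1 in every pair, and m- and o-nitrophenol arrays 3 missed it (0.0608), so the numbers were not taken to pair samples. The replicate block as a fixed term gave 1049 higher and 1162 lower (242 and 310 in every isomer alone), and as a random term 949 and 1042. The cause of these changes was not tested beyond the fewer genes or arrays that some alternatives held. Signal over background could not be examined.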

Other observations

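The families below were chosen after their values were seen. All 20 tested seripauperin (PAU) genes were higher, with shared means of 0.95 (PAU22) to 1.91 (PAU1 and PAU16) on the log2 scale, and their near-identical copies can share a probe's signal. PAU1 had isomer means of 1.73 in p-nitrophenol, 1.25 in m-nitrophenol and 2.77 in o-nitrophenol. HSP31, HSP32, HSP33 and SNO4, of the Hsp31-like family, rose by 1.95 ± 0.27, 2.67 ± 0.19, 2.43 ± 0.19 and 2.43 ± 0.21, and the last 3 are also near-identical copies. Of 12 karyopherins, which carry proteins through the nuclear pore, 9 were lower, 0 higher and 3 did not pass, MSN5 among these with a shared mean of 0.36. Called members included PSE1, at -2.13 ± 0.21.

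Purine and pyrimidine salvage genes were lower for 8 of 15 and higher for 2. HPT1, hypoxanthine-guanine phosphoribosyltransferase, was at -3.13 ± 0.26, APT1, adenine phosphoribosyltransferase, at -3.06 ± 0.17, and AAH1, adenine deaminase, at -2.69 ± 0.24. FUR1, uracil phosphoribosyltransferase, was at -2.49 ± 0.23 and FCY2, the purine and cytosine permease, at -2.42 ± 0.23. Of 19 inositol and phospholipid genes 6 were higher and 1 lower. Beside INO1, the regulator gene INO4 rose by 2.55 ± 0.18 and the methyltransferase genes OPI3 and CHO2 by 2.36 ± 0.22 and 1.49 ± 0.32, while SAH1, the S-adenosylhomocysteine hydrolase gene, fell by 0.85 ± 0.16. All of these calls are from the same limma fit, where 21.7% of genes were higher and 23.5% lower.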
